A study of Mus musculus with 9 samples.

Results

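Clec genes encode proteins with a C-type lectin domain, and 33 of them are described here, chosen as every gene of the deposited count table whose symbol begins with Clec and a digit, other than Clec7a, out of 56748 genes in the table. Polyadenylated RNA was sequenced from the cortex of wild-type mice of the strain C57BL/6J, 2 to 3 months old, in 9 libraries that form 3 groups of 3 biological replicates. Reactive cultures were grown from the core of lesions made by a surgical lancet in a grid of stab wounds. The dissected cores were kept in DMEM/F12 with B27 and 10% fetal bovine serum, and the whole culture was collected without a sort. Injured cortex was the dissociated lesion core, taken straight from the animal. Uninjured cortex was dissociated and handled in the same way. A flow cytometry sort of both in vivo groups removed dead cells, debris and the neuronal fraction, gated as positive for CD171 and negative for ACSA-2. The sample labels give dissection 1 day after injury and 6 days in culture, whereas the series design gives 3 days for injured cortex, 24 h before culture and 8 days in culture. The labels name no drug and no transgene. Because the cultures differed from injured cortex in time, serum and sorting together, these differences cannot be told apart in any comparison with the cultures.

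C-type lectin receptors bind sugars, lipids or proteins through a shared fold and are found above all on myeloid cells. Members such as Dectin-2, Mincle and MDL-1 have short tails and pair with the adaptor FcR-gamma or DAP12, which recruits the kinase Syk and, for several of them, the adaptor Card9. Others, such as DCIR1 and MICL, carry an inhibitory tyrosine motif that recruits phosphatases. In the brain the family is known mostly from microglia, border macrophages and myeloid cells that enter after injury.

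Total counts were 16667883 to 24302770 per library in reactive cultures, 20389561 to 21135163 in injured cortex and 12205049 to 18577561 in uninjured cortex. Levels below are CPM, counts scaled to library size with TMM factors (trimmed mean of M values), and changes are log2 fold changes ± SE from edgeR's quasi-likelihood test with Benjamini-Hochberg adjustment over the 18093 genes tested, called at an adjusted p under 0.05. Injured replicate 3 was the lowest of the 3 injured libraries for most myeloid members. The microglial markers, for example, had a summed level of 5105 CPM there, while injured replicates 1 and 2 had 8098 and 16085 CPM. Uninjured replicates 2 and 3 also stood apart: their summed level of 2003 receptor genes of olfactory and vomeronasal neurons was 152 and 112 CPM, and the next highest library had 39.0 CPM. Values without these libraries are given where a call changed or a called value moved by over 1.5 times.

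Of the 33 genes, 20 had enough counts to be tested, and 14 of these were above the level of the filter in all 9 libraries. Clec9a was above it only in injured cortex. Clec4a4 was above it in 3 injured libraries, 1 uninjured library and 0 cultures. The summed level of the 33 genes was 1392, 1943 and 2440 CPM in reactive cultures, 756, 752 and 293 CPM in injured cortex and 321, 303 and 249 CPM in uninjured cortex. Every culture was above every in vivo library, while injured replicate 3 lay within the range of uninjured cortex. In bulk RNA, a larger number of cells of a type and more RNA per cell cannot be told apart.

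**Figure D1:**
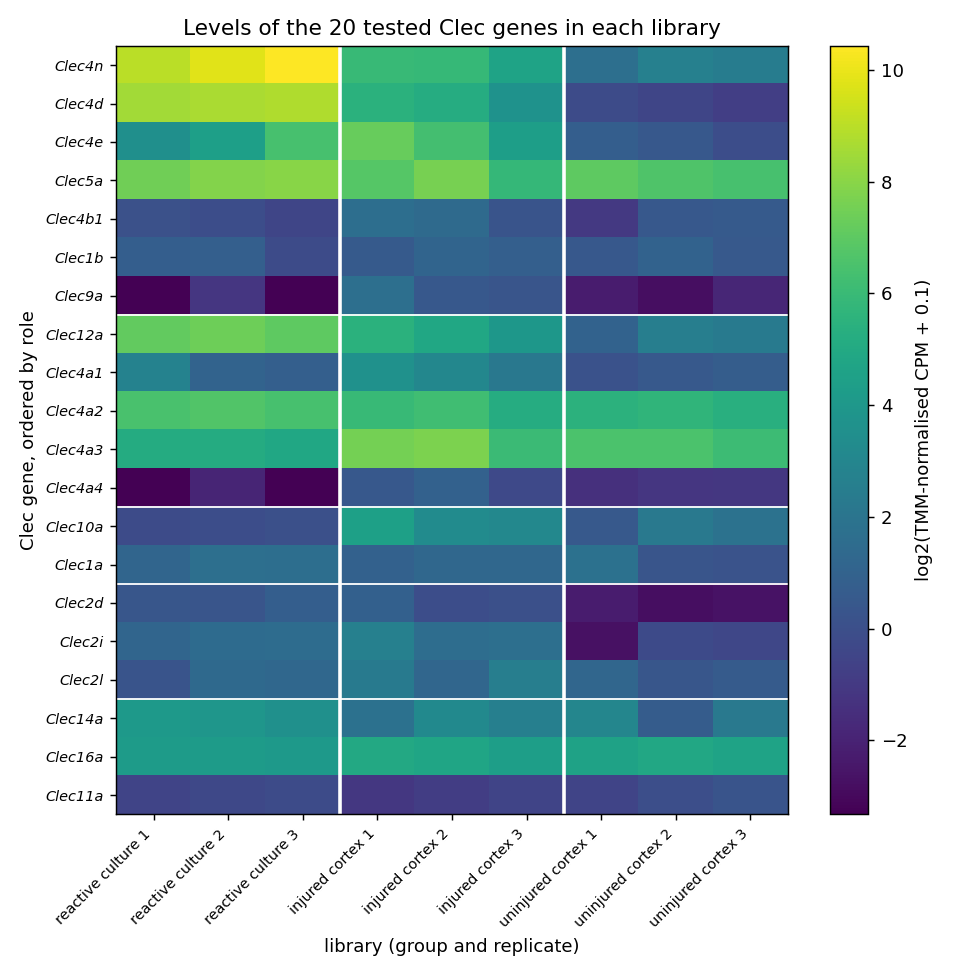
Levels of the 20 tested Clec genes (rows, ordered by role) in each library (columns), as log2 of CPM plus 0.1. Clec4n and Clec4d are brightest in the 3 cultures, Clec4e is brightest in injured replicate 1, and Clec9a and Clec4a4 are at 0 in cultures 1 and 3.

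In injured against uninjured cortex, 9 of the 20 tested members were higher and 0 were lower. Among all genes tested, 8.99% were called higher and 2.87% lower in that comparison. The members called higher were Clec4n, Clec4d, Clec4e, Clec9a, Clec12a, Clec4a1, Clec10a, Clec2d and Clec2i. Clec9a entered the test only through injured cortex, where it was high, so its call is a description. The median log2 fold change of the 20 was 1.65, against 0.00 over all genes, and 12 had an unadjusted p under 0.05. Among the 14 members above the filter level in every library, 6 were higher and 0 lower, against 9.24% and 2.63% of the 12202 genes of that kind. The injured libraries lay wholly above the uninjured ones for 10 members and wholly below for 0, where 16.1% of all genes lay wholly above, 12.5% wholly below and 28.6% either way. With uninjured replicates 2 and 3 both left out, 5 members were called higher.

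In reactive culture against injured cortex, 4 members were higher and 5 were lower, where 20.0% of all genes were called higher and 30.1% lower. Clec4n, Clec4d, Clec12a and Clec4a2 were higher, and Clec4a3, Clec4a4, Clec10a, Clec9a and Clec16a were lower. Clec9a and Clec4a4 passed the filter only with the injured libraries, where they were highest, so their calls are a description. The median of the 20 was -0.43, against -0.19 over all genes. The cultures lay wholly above injured cortex for 6 members and wholly below for 7, where 25.8% and 33.8% of all genes did so and 59.7% did either. Without injured replicate 3, the number called lower was 8 in place of 5. In reactive culture against uninjured cortex, 10 members were higher and 3 lower, where 27.5% and 33.1% of all genes were called. The median of the members was 0.80, against -0.17 over all genes. The cultures lay wholly above uninjured cortex for 10 members and wholly below for 4, where 32.1% and 37.1% of all genes did so and 69.2% did either. With uninjured replicates 2 and 3 both left out, 6 members were higher and 1 lower. Among the 14 members above the filter level in every library, the cultures were higher for 4 and lower for 3 against injured cortex (24.7% and 20.7% of such genes) and higher for 8 and lower for 3 against uninjured cortex (34.1% and 23.1%). In either direction, 45.0% of the members were called in cultures against injured cortex, beside 50.1% of all genes, and 65.0% in cultures against uninjured cortex, beside 60.5%, so these shares were near those of all genes. Between injured and uninjured cortex 45.0% of the members were called, beside 11.9% of all genes. The 3 comparisons share libraries, so their counts are not independent of each other.

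**Figure D2:**
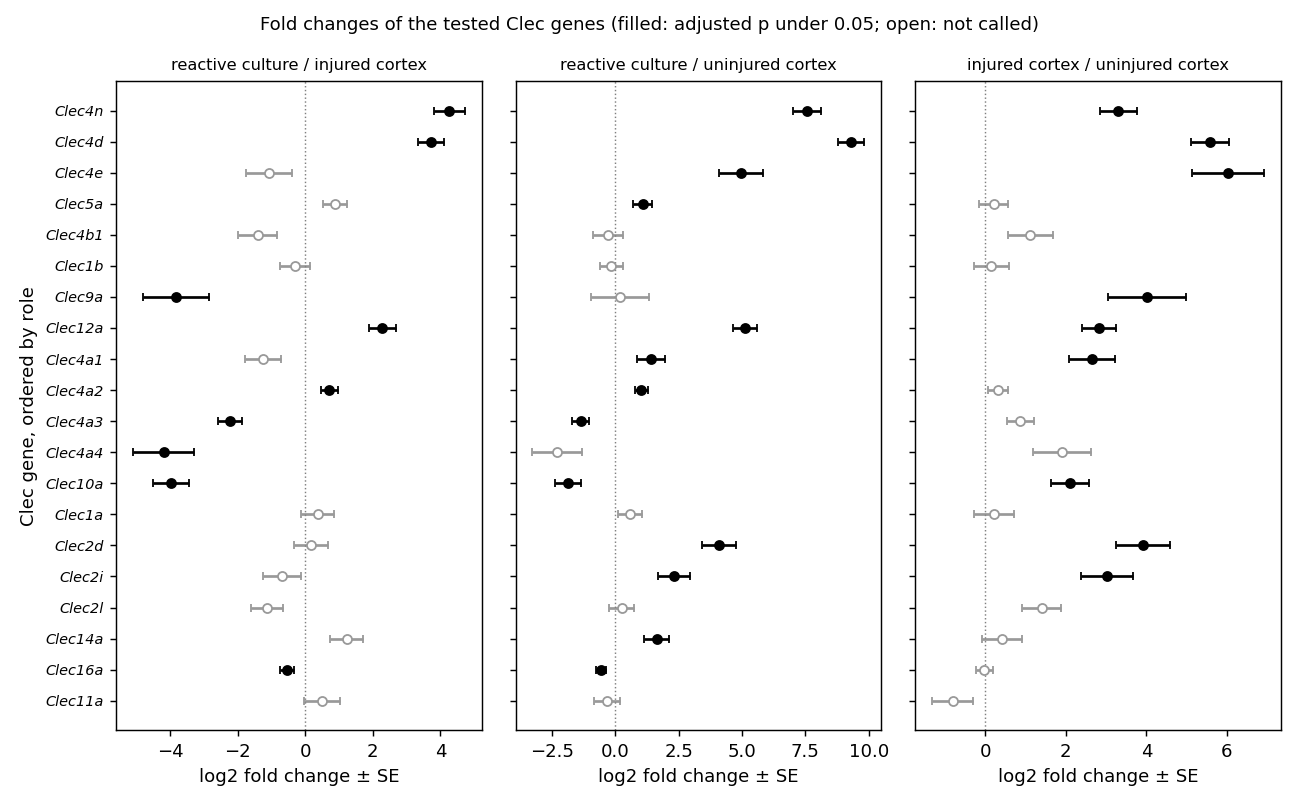
Log2 fold changes (points) with their SE (bars) of the 20 tested Clec genes, ordered by role, in the 3 comparisons. Filled points passed the test and open points did not. Clec4n, Clec4d and Clec12a are filled to the right of 0 in every panel, Clec4a3 and Clec10a are filled to the left in both panels of the cultures, and no filled point lies left of 0 between injured and uninjured cortex.

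The largest change of each comparison was in an activating receptor, and all 7 members of that group were tested. Between injured and uninjured cortex 4 were higher and 0 lower. In the cultures 2 were higher and 1 lower than in injured cortex, and 4 were higher and 0 lower than in uninjured cortex. The shares of all genes called higher and lower were 8.99% and 2.87%, 20.0% and 30.1%, and 27.5% and 33.1% in that order. Clec9a, whose calls are a description, is among the 4 higher in injured than in uninjured cortex. It is also the 1 lower in cultures than in injured cortex.

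Clec4n encodes Dectin-2, which binds fungal mannans and signals through FcR-gamma. Its level was 518, 914 and 1378 CPM in reactive cultures, 62.1, 59.0 and 25.3 CPM in injured cortex and 3.15, 6.25 and 5.37 CPM in uninjured cortex. The 3 groups did not overlap, and the cultures were the highest. Clec4n was 9.87-fold higher in injured than in uninjured cortex (log2 3.30 ± 0.45, adjusted p = 6.57e-04) and 19.2-fold higher in cultures than in injured cortex (log2 4.26 ± 0.46, adjusted p = 1.63e-05). Against uninjured cortex the cultures were 190-fold higher (log2 7.57 ± 0.55, adjusted p = 3.94e-07). The changes against uninjured cortex without its replicates 2 and 3 were 3.94 in injured cortex (adjusted p = 0.0268) and 8.20 in cultures (adjusted p = 8.26e-05).

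Clec4d encodes MCL, a partner of Mincle and Dectin-2 on the cell surface. It had 369, 410 and 438 CPM in reactive cultures, 43.3, 36.2 and 12.7 CPM in injured cortex and 0.773, 0.630 and 0.488 CPM in uninjured cortex. Here too the groups did not overlap, and the cultures varied least in relation to their mean. Clec4d was 48.0-fold higher in injured than in uninjured cortex (log2 5.58 ± 0.47, adjusted p = 2.47e-05) and 13.2-fold higher in cultures than in injured cortex (log2 3.72 ± 0.39, adjusted p = 1.15e-05). Its change between cultures and uninjured cortex was the largest of any tested member, 635-fold (log2 9.31 ± 0.52, adjusted p = 5.58e-08), and rested on 14, 14 and 8 counts in the uninjured libraries.

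Clec4e encodes Mincle, which binds mycobacterial cord factor and the nuclear protein SAP130 released by dying cells. Its level was 11.4, 22.0 and 84.9 CPM in reactive cultures, 149, 78.4 and 20.9 CPM in injured cortex and 1.60, 1.30 and 0.854 CPM in uninjured cortex. All libraries of both injury groups were above the uninjured ones, but cultures and injured cortex overlapped and each spread several-fold. Clec4e was 65.3-fold higher in injured than in uninjured cortex, the largest change of a member in that comparison (log2 6.03 ± 0.89, adjusted p = 9.91e-04). Without injured replicate 1 the change was 5.28 (adjusted p = 0.00209). It was 5.67 and no longer called with uninjured replicates 2 and 3 both left out (adjusted p = 0.0836). It was 31.0-fold higher in cultures than in uninjured cortex (log2 4.96 ± 0.86, adjusted p = 3.85e-04), and without culture 3 this was 3.74 (adjusted p = 9.64e-04). Cultures against injured cortex gave -1.07 ± 0.69 (adjusted p = 0.211, 95% confidence interval -2.58 to 0.43). That difference was called lower without culture 3 (-2.30, adjusted p = 0.0177) or without injured replicate 3 (-1.53, adjusted p = 0.0453), so a single library decided it, and it was also called when genes with low counts were kept in (-1.09, adjusted p = 2.27e-04).

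Clec5a encodes MDL-1, a DAP12-coupled receptor of myeloid cells, and was well expressed before injury. It had 178, 238 and 250 CPM in reactive cultures, 111, 194 and 57.8 CPM in injured cortex and 132, 98.0 and 85.2 CPM in uninjured cortex. Injured and uninjured cortex overlapped fully, with a log2 difference of 0.20 ± 0.36 (adjusted p = 0.770, 95% confidence interval -0.58 to 0.99). That difference was -0.30 without injured replicate 2. The cultures were 2.12-fold higher than uninjured cortex (log2 1.08 ± 0.36, adjusted p = 0.0218), and the call was lost without culture 2 (1.00, adjusted p = 0.0703), culture 3 (1.00, adjusted p = 0.0654), uninjured replicate 2 (1.02, adjusted p = 0.0705) or uninjured replicate 3 (0.94, adjusted p = 0.0798). With both of these uninjured libraries left out it was 0.74 (adjusted p = 0.313). Cultures against injured cortex gave 0.88 ± 0.36 (adjusted p = 0.0608), called higher without injured replicate 2 (1.40, adjusted p = 0.00455). It was also called higher with all libraries by limma-voom (adjusted p = 0.0372), by DESeq2 (0.92, adjusted p = 0.0373) and when genes with low counts were kept in (0.86, adjusted p = 0.00602).

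Clec9a encodes DNGR-1, a receptor for the actin of dead cells that marks cross-presenting dendritic cells. It had 0, 0.345 and 0 CPM in reactive cultures, 3.16, 1.26 and 1.16 CPM in injured cortex and 0.110, 0.0450 and 0.183 CPM in uninjured cortex. All 3 injured libraries were above the other 6. Only these 3 were above the filter level, so the tests of Clec9a are given as a description. The change between injured and uninjured cortex was 4.02 ± 0.97 (adjusted p = 0.0188) and was lost without injured replicate 1 (3.37, adjusted p = 0.121), uninjured replicate 2 (3.59, adjusted p = 0.102) or uninjured replicate 3 (4.49, adjusted p = 0.0524), and with both of these left out it was 3.98 (adjusted p = 0.295). Cultures against injured cortex gave -3.83 ± 0.97 (adjusted p = 0.00647), and it was also called lower without culture 2, the only culture with a count (adjusted p = 0.00215). Without injured replicate 1 this was -3.22 (adjusted p = 0.0377). Clec9a shares 184 exon bases with Clec1b on the same strand, 5.59% of its exon length. The 8 dendritic cell markers summed to 137 to 178 CPM in cultures, 845 to 1538 CPM in injured cortex and 932 to 1539 CPM in uninjured cortex. Irf8 alone gave 130 to 170 CPM of the sums in cultures. Siglech, which is also among the microglial markers, gave the largest part of the sums in vivo. Of the 8, 4 were called higher and 0 lower in injured than in uninjured cortex, and Xcr1 was at 0 in all cultures. Flt3 was at 13.4 to 45.7 CPM in injured cortex and 1.49 to 2.44 CPM in uninjured cortex, whereas Siglech was at 544 to 1021 CPM in injured cortex and 738 to 1350 CPM in uninjured cortex. Their part in the levels of Clec9a was not tested.

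Clec4b1, a member of the DCAR group that pairs with FcR-gamma, and Clec1b, which encodes the podoplanin receptor CLEC-2 of platelets, passed the test in no comparison. Clec4b1 had 0.983, 0.862 and 0.626 CPM in reactive cultures, 3.02, 2.57 and 1.09 CPM in injured cortex and 0.387, 1.26 and 1.40 CPM in uninjured cortex. Cultures against injured cortex gave -1.41 ± 0.58 (adjusted p = 0.0592), and this was called lower without injured replicate 3 (-1.74, adjusted p = 0.0217) or uninjured replicate 1 (-1.41, adjusted p = 0.0382). With all libraries it was called lower by DESeq2 (-1.39, adjusted p = 0.0466) and with upper-quartile scaling (-1.47, adjusted p = 0.0497). It was called in 5 of 18 alternatives. Clec1b had 1.60, 1.67 and 0.783 CPM in reactive cultures, 1.37, 2.04 and 1.67 CPM in injured cortex and 1.27, 1.93 and 1.34 CPM in uninjured cortex. Its groups overlapped in all 3 comparisons, with log2 differences of -0.31 to 0.15.

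**Figure D3:**
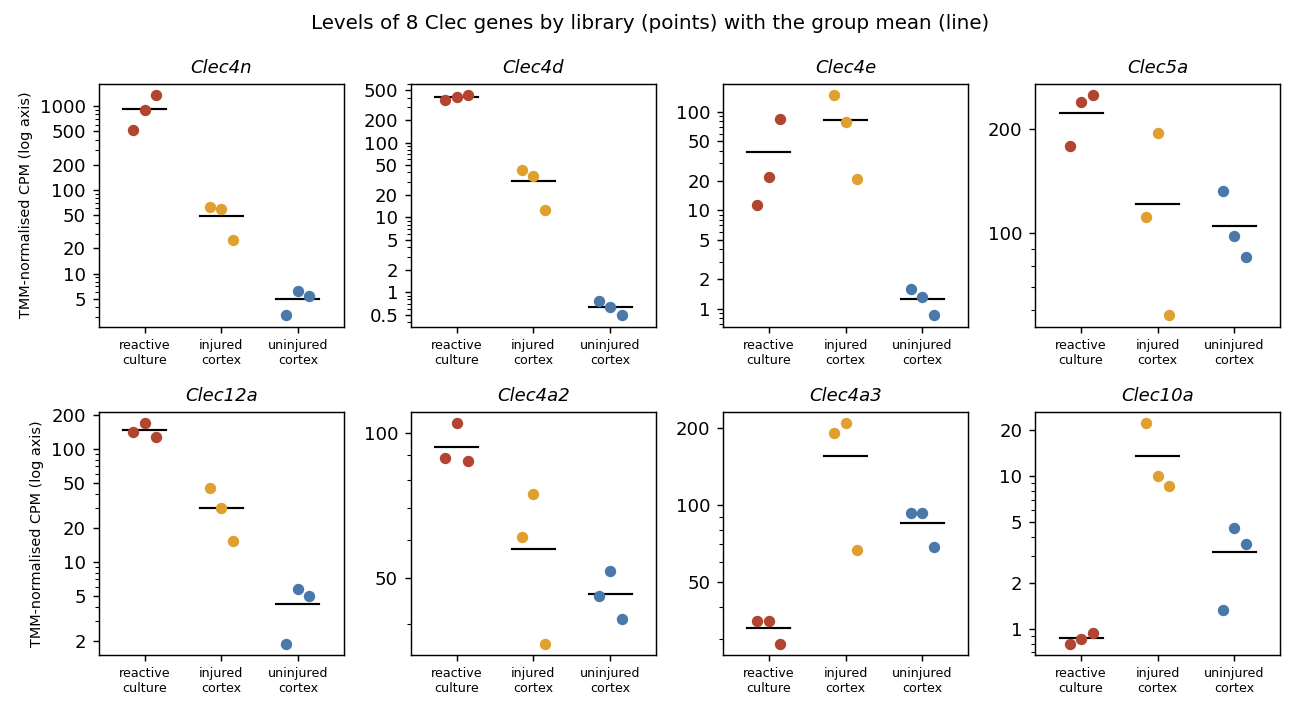
CPM of 8 Clec genes on a log axis, with a point for each library and a line at the mean of each group of 3. Clec4n, Clec4d and Clec12a step down without overlap across reactive cultures, injured cortex and uninjured cortex, Clec4e overlaps between cultures and injured cortex, and Clec4a3 and Clec10a are lowest in the cultures.

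The DCIR-type and other inhibitory-type receptors divided in the cultures. Of 7 members, 5 were tested. Between injured and uninjured cortex 2 were higher and 0 lower. In the cultures 2 were higher and 2 lower than in injured cortex, and 3 were higher and 1 lower than in uninjured cortex. The shares of all genes are those given for the activating receptors. Clec4a4, whose call is a description, is among the 2 lower in cultures than in injured cortex, beside Clec4a3.

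Clec12a encodes MICL, an inhibitory receptor that binds uric acid crystals. Its level was 140, 170 and 128 CPM in reactive cultures, 44.7, 29.6 and 15.3 CPM in injured cortex and 1.88, 5.71 and 5.0 CPM in uninjured cortex. The 3 groups did not overlap. It was 7.08-fold higher in injured than in uninjured cortex (log2 2.82 ± 0.43, adjusted p = 0.00119), and the cultures were 4.87-fold higher than injured cortex (log2 2.29 ± 0.41, adjusted p = 6.72e-04) and 34.5-fold higher than uninjured cortex (log2 5.11 ± 0.47, adjusted p = 2.51e-06). Against uninjured replicate 1 alone, the changes were 3.97 in injured cortex (adjusted p = 0.0134) and 6.26 in cultures (adjusted p = 7.49e-05).

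Clec4a2 encodes DCIR1, which carries the inhibitory motif. It had 88.7, 105 and 87.6 CPM in reactive cultures, 60.8, 74.8 and 36.4 CPM in injured cortex and 45.8, 51.6 and 41.0 CPM in uninjured cortex. The cultures were above every in vivo library, and injured and uninjured cortex overlapped (log2 0.31 ± 0.25, adjusted p = 0.464). The cultures were 2.03-fold higher than uninjured cortex (log2 1.02 ± 0.25, adjusted p = 0.00393) and 1.64-fold higher than injured cortex (log2 0.71 ± 0.25, adjusted p = 0.0316). This last call was lost when any 1 of the 3 cultures, injured replicate 1 or injured replicate 3 was left out, with log2 changes of 0.76, 0.61, 0.77, 0.75 and 0.47 in that order. With uninjured replicates 2 and 3 both left out, the change against uninjured cortex was 1.03 and not called (adjusted p = 0.0697).

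Clec4a3 encodes DCIR3, a relative of DCIR1 that lacks the inhibitory motif. It had 35.0, 35.1 and 28.6 CPM in reactive cultures, 191, 209 and 66.8 CPM in injured cortex and 93.3, 93.3 and 68.3 CPM in uninjured cortex. Every culture was below every in vivo library. The cultures were 4.72-fold lower than injured cortex (log2 -2.24 ± 0.36, adjusted p = 3.16e-04) and 2.58-fold lower than uninjured cortex (log2 -1.37 ± 0.35, adjusted p = 0.00507). Injured against uninjured cortex gave 0.87 ± 0.34 (adjusted p = 0.125), and without injured replicate 3, whose level lay below all uninjured libraries, this was 1.22 and called higher (adjusted p = 9.95e-04), as it was when genes with low counts were kept in (0.90, adjusted p = 0.00865).

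Clec4a1, which encodes DCIR4, had 6.63, 2.01 and 1.72 CPM in reactive cultures, 12.3, 8.01 and 4.42 CPM in injured cortex and 0.994, 1.35 and 1.59 CPM in uninjured cortex. Injured cortex was 6.27-fold higher than uninjured cortex (log2 2.65 ± 0.56, adjusted p = 0.00934), a call lost with uninjured replicates 2 and 3 both left out (3.03, adjusted p = 0.149). The cultures were 2.64-fold higher than uninjured cortex (log2 1.40 ± 0.56, adjusted p = 0.0445), which was 0.53 without culture 1 (adjusted p = 0.359) and was also lost without uninjured replicate 1 (1.26), 2 (1.41) or 3 (1.54), and with replicates 2 and 3 both left out (1.79, adjusted p = 0.146). Against injured cortex the cultures differed by -1.25 ± 0.53 (adjusted p = 0.0665), called lower without culture 1 (-2.13, adjusted p = 0.00678) or injured replicate 3 (-1.54, adjusted p = 0.0239). With all libraries it was called lower by DESeq2 (-1.22, adjusted p = 0.0484) and when genes with low counts were kept in (-1.25, adjusted p = 0.0131). It was called in 5 of 18 alternatives.

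Clec4a4 encodes DCIR2, known from a subset of dendritic cells, and was scarce throughout. It had 0, 0.172 and 0 CPM in reactive cultures, 1.27, 1.83 and 0.715 CPM in injured cortex and 0.276, 0.360 and 0.366 CPM in uninjured cortex. The 3 cultures held 3 counts in all and injured cortex 83, a ratio of 0.0542 after scaling to library size with a 95% counting interval of 0.0110 to 0.164. The difference was called lower (log2 -4.19 ± 0.91, adjusted p = 0.00257). Clec4a4 passed the filter only with the injured libraries, where it was highest, so its call against injured cortex is a description. Against the 19 counts of uninjured cortex the ratio was 0.193, with an interval of 0.0365 to 0.655, and the test gave an adjusted p of 0.0591, called lower without culture 2 (adjusted p = 0.0130). With all libraries it was called lower by limma-voom (-2.53, adjusted p = 0.0290) and with upper-quartile scaling (-2.48, adjusted p = 0.0434). Injured cortex was above uninjured cortex in all libraries but was not called (log2 1.90 ± 0.72, adjusted p = 0.114). Clec4a and Clec4b genes are close paralogs, and how reads that match several of them were counted is not given in the sources used here, so their separate levels are uncertain.

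Among endocytic and glycan-binding receptors, 2 of 4 were tested. Clec10a encodes MGL1, a galactose-type lectin of macrophages and dendritic cells. It had 0.798, 0.862 and 0.939 CPM in reactive cultures, 22.2, 9.95 and 8.61 CPM in injured cortex and 1.33, 4.59 and 3.60 CPM in uninjured cortex. No groups overlapped, injured cortex being the highest and the cultures the lowest. Injured cortex was 4.26-fold higher than uninjured cortex (log2 2.09 ± 0.47, adjusted p = 0.0135), a call lost without injured replicate 1 (1.52, adjusted p = 0.0849). It was 3.34 with uninjured replicates 2 and 3 both left out (adjusted p = 0.0338). The cultures were 15.6-fold lower than injured cortex (adjusted p = 8.90e-05) and 3.66-fold lower than uninjured cortex (log2 -1.87 ± 0.52, adjusted p = 0.00815). Without those libraries, the last difference was -0.62 (adjusted p = 0.456), and limma-voom did not call it either (-1.68, adjusted p = 0.0669).

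Clec1a, a receptor for fungal melanin that endothelial cells also express, had 2.15, 3.16 and 3.05 CPM in reactive cultures, 1.84, 2.36 and 2.28 CPM in injured cortex and 3.42, 1.12 and 1.04 CPM in uninjured cortex. Its groups overlapped in all 3 comparisons, and it passed the test in none. Without uninjured replicate 1, the cultures were called higher than uninjured cortex (log2 1.37, adjusted p = 0.0224).

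Clec4g, a sinusoidal endothelial lectin, was not tested. It had 0 counts in every culture, 9, 9 and 5 counts in injured cortex and 0 counts in every uninjured library. With a group at 0 set to a floor of 3 counts in all, cultures were at least 5.11-fold lower than injured cortex, and injured cortex was at least 6.24-fold higher than uninjured cortex. Its exons overlap those of Gm16553 on the opposite strand by 146 bases, and strand use in the counting is not given in the sources used here.

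The Clec2 family encodes ligands of NKR-P1 receptors of natural killer cells and their relatives, and 3 of its 9 members were tested. Clec2d encodes Clr-b, the ligand of the inhibitory receptor NKR-P1B. It had 1.17, 1.15 and 1.64 CPM in reactive cultures, 1.75, 0.838 and 0.919 CPM in injured cortex and 0.110, 0.0450 and 0.0610 CPM in uninjured cortex, the last from 2, 1 and 1 counts. Cultures and injured cortex overlapped, and both lay above all uninjured libraries. It was 17.0-fold higher in cultures (log2 4.09 ± 0.67, adjusted p = 2.66e-04) and 15.1-fold higher in injured cortex (log2 3.92 ± 0.67, adjusted p = 0.00255) than in uninjured cortex. With uninjured replicates 2 and 3 both left out, the change was 3.49 in cultures (adjusted p = 0.0257), and 3.31 and no longer called in injured cortex (adjusted p = 0.150).

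Clec2i encodes Clr-g, a ligand of the activating receptor NKR-P1F. It had 2.15, 2.70 and 2.82 CPM in reactive cultures, 6.32, 2.88 and 3.17 CPM in injured cortex and 0.0552, 0.765 and 0.671 CPM in uninjured cortex. Both injury groups were above uninjured cortex, the cultures by 5.04-fold (log2 2.33 ± 0.64, adjusted p = 0.00738) and injured cortex by 8.12-fold (log2 3.02 ± 0.64, adjusted p = 0.00903). Leaving out uninjured replicates 2 and 3 leaves 1 count in uninjured cortex, and the changes were then 5.37 in cultures (adjusted p = 0.00227) and 6.05 in injured cortex (adjusted p = 0.0171). Clec2l, the relative expressed in brain, had 1.11, 2.47 and 2.27 CPM in reactive cultures, 4.91, 2.20 and 5.75 CPM in injured cortex and 2.26, 1.17 and 1.46 CPM in uninjured cortex, and passed the test in no comparison. Without injured replicate 2 it was called higher in injured than in uninjured cortex (log2 1.71, adjusted p = 0.0377) and lower in cultures than in injured cortex (-1.44, adjusted p = 0.0226). With all libraries, DESeq2 called Clec2l higher in injured than in uninjured cortex (1.32, adjusted p = 0.0470). Keeping genes with low counts in did so too (1.43, adjusted p = 0.0401). That comparison was called in 3 of 18 alternatives.

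Clec14a encodes an endothelial adhesion receptor that binds multimerin 2. It had 16.6, 14.8 and 12 CPM in reactive cultures, 3.35, 9.16 and 6.09 CPM in injured cortex and 7.90, 1.53 and 4.64 CPM in uninjured cortex. The cultures were above every in vivo library and 3.09-fold higher than uninjured cortex (log2 1.63 ± 0.51, adjusted p = 0.0149). This was 2.26 without uninjured replicate 1, and 0.86 and not called with uninjured replicates 2 and 3 both left out (adjusted p = 0.229). Against injured cortex the cultures gave 1.22 ± 0.50 (adjusted p = 0.0584), called higher without injured replicate 2 (1.62, adjusted p = 0.0299), uninjured replicate 1 (1.22, adjusted p = 0.0347) or uninjured replicate 2 (1.23, adjusted p = 0.0215). With all libraries it was called higher by limma-voom (1.34, adjusted p = 0.0284) and by DESeq2 (1.27, adjusted p = 0.0286). Keeping genes with low counts in gave a call as well (1.21, adjusted p = 0.00330). It was called in 8 of 18 alternatives. The 7 endothelial markers summed to 104 to 140 CPM in cultures, 253 to 396 CPM in injured cortex and 177 to 455 CPM in uninjured cortex. Of the 7, 0 were called higher and 2 lower in cultures than in injured cortex, and 0 higher and 3 lower than in uninjured cortex. Their part in the level of Clec14a was not tested.

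Clec16a encodes an intracellular regulator of autophagy and is not a surface receptor. It had 18.7, 18.5 and 17.1 CPM in reactive cultures, 31.0, 27.0 and 21.0 CPM in injured cortex and 24.2, 30.5 and 25.4 CPM in uninjured cortex. The cultures were below every in vivo library, by 1.46-fold against injured cortex (log2 -0.54 ± 0.21, adjusted p = 0.0475) and 1.48-fold against uninjured cortex (log2 -0.56 ± 0.21, adjusted p = 0.0346). Both calls were near the threshold. The first was lost without any 1 of the libraries other than injured replicate 3, at -0.57 to -0.41, and the second without any 1 culture, injured replicate 2, uninjured replicate 2 or uninjured replicate 3, at -0.61 to -0.47. With all libraries the first was also lost by DESeq2 (adjusted p = 0.0538), by limma-voom (adjusted p = 0.0663) and with low-count genes kept in (adjusted p = 0.143). The first was called in 4 of 18 alternatives and the second in 10 of 18. Clec11a, a secreted growth factor of bone marrow, ranged over 0.377 to 1.10 CPM in the 9 libraries and passed the test in no comparison.

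The other 12 members were not tested. Summed over the 3 libraries of a group, Clec2f had 5 counts in cultures, 6 in injured cortex and 0 in uninjured cortex. Clec2g had 8 counts and Clec2j 4, all in uninjured cortex, and Clec4b2 had 4, all in injured cortex. Clec18a had 2, 0 and 6 counts in cultures, injured cortex and uninjured cortex, and Clec3b had 0, 4 and 1. Clec3a, Clec4f, Clec2e, Clec2m, Clec12b and Clec2h had 1 to 3 counts in all 9 libraries together. No direction is drawn from these counts.

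Dividing CPM by the merged exon length of each gene allowed levels to be compared between members. In reactive cultures the order was led by Clec4n, with 660 ± 303 CPM per kb, ahead of Clec4d with 254 ± 21.7 and Clec5a with 57.8 ± 10.2 (SD, n = 3). In injured cortex Clec4a3 led with 117 ± 58.3 CPM per kb, ahead of Clec4n with 34.4 ± 14.4 and Clec5a with 31.5 ± 17.8, and these last levels lay within each other's spread. In uninjured cortex Clec4a3 led with 64.0 ± 10.9 CPM per kb, ahead of Clec5a with 27.3 ± 6.28 and Clec4a2 with 15.8 ± 1.82, while Clec4n stood at 3.47.

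As a share of the length-corrected sum of the family, Clec4n and Clec4d together made up 80.3%, 83.9% and 88.1% in reactive cultures, 21.0%, 18.7% and 19.8% in injured cortex and 2.03%, 3.67% and 3.94% in uninjured cortex. Clec5a, Clec4a2 and Clec4a3 together made up 13.9%, 11.6% and 8.26% in reactive cultures, 57.5%, 68.0% and 59.9% in injured cortex and 90.4%, 86.8% and 84.5% in uninjured cortex. The groups did not overlap in either share, and injured replicate 3 lay with the other injured libraries although its summed level was lower. By raw counts without a length correction, the share of Clec4n and Clec4d was 63.7%, 68.1% and 74.5% in cultures. The genes in these sums were picked after their levels were seen, so the shares are a description.

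**Figure D4:**
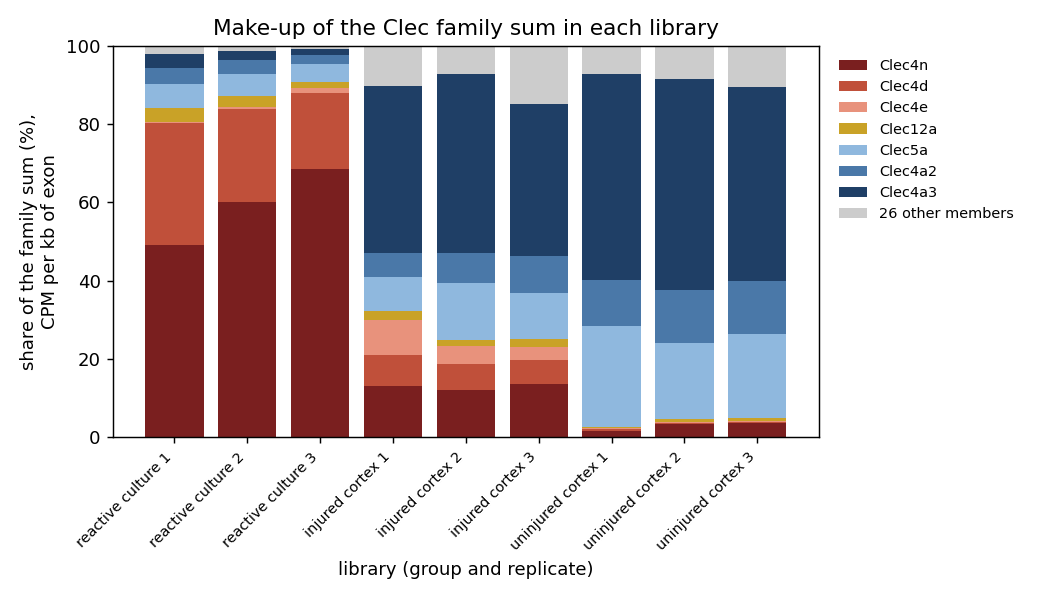
Share of the family sum, in CPM per kb of exon, held by 7 Clec genes and by the other 26 members together in each library. Clec4n and Clec4d fill over 80.0% of each culture, and Clec4a3, Clec4a2 and Clec5a fill over 80.0% of each uninjured library.

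Ratios of counts within a library do not depend on scaling between libraries. For Clec4d over Clec4e the ratio was 32.3, 18.7 and 5.16 in reactive cultures, 0.290, 0.462 and 0.607 in injured cortex and 0.483, 0.483 and 0.571 in uninjured cortex. Clec4e thus had more counts than Clec4d in all 6 in vivo libraries and fewer in all 3 cultures. For Clec4n over Clec4e it was 45.4, 41.6 and 16.2 in cultures, 0.417, 0.752 and 1.21 in injured cortex and 1.97, 4.79 and 6.29 in uninjured cortex. For Clec4a3 over Clec4a2 it was 0.394, 0.334 and 0.327 in cultures, 3.14, 2.79 and 1.84 in injured cortex and 2.04, 1.81 and 1.67 in uninjured cortex, above 1 in all in vivo libraries and below 1 in all cultures. The pairs were chosen after their values were seen.

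**Figure D5:**
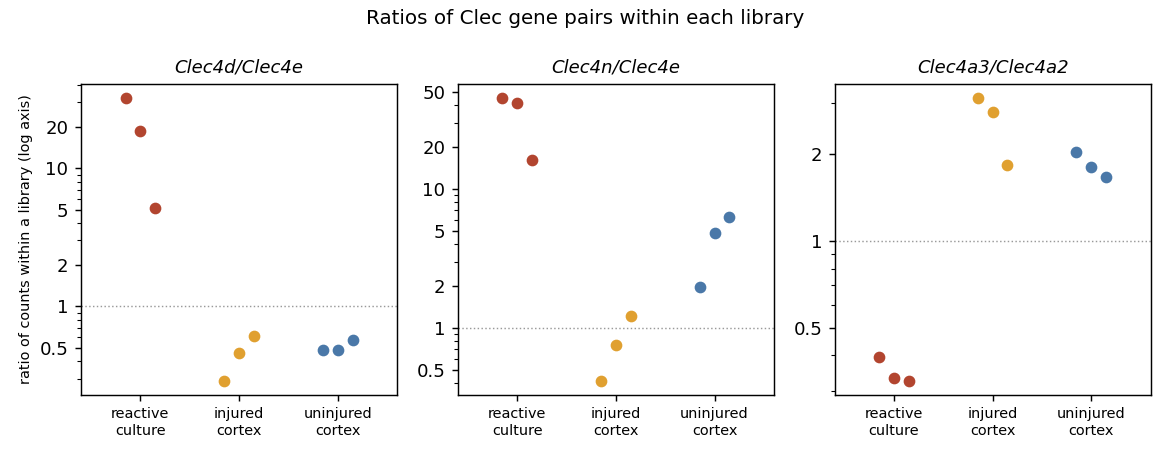
Ratio of counts, not corrected for gene length, of 3 pairs of Clec genes within each library (points) on a log axis, with a dotted line at 1. The cultures lie above 1 for Clec4d over Clec4e, where all in vivo libraries lie below 1, and the order is the opposite for Clec4a3 over Clec4a2. Per kb of exon, Clec4d is above Clec4e in all libraries but injured replicate 1.

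By RefSeq on GRCm38.p6, 25 of the 33 genes lie on chromosome 6. There, Clec4a1, Clec4a3, Clec4a4, Clec4b1, Clec4a2, Clec4b2, Clec4n, Clec4d and Clec4e form 1 run of 9 members, and 13 others, among them Clec12a, Clec1b, Clec9a and the Clec2 genes other than Clec2l, form another. Of the run of 9, 8 were tested. In the cultures 3 were higher and 2 lower than in injured cortex, and 5 were higher and 1 lower than in uninjured cortex. In injured against uninjured cortex 4 were higher and 0 lower. Of all genes, 20.0% and 30.1%, 27.5% and 33.1%, and 8.99% and 2.87% were called higher and lower in the same order. Clec4a4, whose call is a description, is among the 2 lower in cultures than in injured cortex. Clec4a3 and Clec4a2, called in opposite directions in the cultures, are both in this run. Clec4d and Clec4e are next to each other in it. Their order by counts, not corrected for gene length, differed between cultures and in vivo libraries. Per kb of exon, Clec4d was above Clec4e in all libraries but injured replicate 1.

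The 250 bases before the start of each of 4 genes are shown as examples, chosen after their values were seen: Clec4d, Clec4e and Clec12a were higher in both injury groups than in uninjured cortex, and Clec4a3 was lower in cultures than in both in vivo groups. They are RefSeq sequences on GRCm38.p6, 5′ to 3′ on the strand of the gene, at chr6:123261857-123262106 (+) for Clec4d, chr6:123289872-123290121 (-) for Clec4e, chr6:129349994-129350243 (+) for Clec12a and chr6:122952265-122952514 (+) for Clec4a3. Capitals mark matches, on either strand, to GAGGAA (a core bound by PU.1 and other ETS factors), TGANTCA (AP-1), TTGCNNAA (C/EBP), GGG and CC with 5 bases between them (NF-kB) or GAAA repeated after any 2 bases (IRF).
Clec4d: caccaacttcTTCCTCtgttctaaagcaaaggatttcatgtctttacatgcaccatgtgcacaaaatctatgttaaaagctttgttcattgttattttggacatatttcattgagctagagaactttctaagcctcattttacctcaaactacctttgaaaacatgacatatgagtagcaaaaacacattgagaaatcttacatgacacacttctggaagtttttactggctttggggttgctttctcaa
Clec4e: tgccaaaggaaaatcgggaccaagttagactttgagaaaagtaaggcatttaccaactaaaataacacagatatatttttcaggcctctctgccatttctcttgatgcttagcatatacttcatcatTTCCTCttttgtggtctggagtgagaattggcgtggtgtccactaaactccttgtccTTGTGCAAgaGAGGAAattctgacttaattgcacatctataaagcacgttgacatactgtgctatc
Clec12a: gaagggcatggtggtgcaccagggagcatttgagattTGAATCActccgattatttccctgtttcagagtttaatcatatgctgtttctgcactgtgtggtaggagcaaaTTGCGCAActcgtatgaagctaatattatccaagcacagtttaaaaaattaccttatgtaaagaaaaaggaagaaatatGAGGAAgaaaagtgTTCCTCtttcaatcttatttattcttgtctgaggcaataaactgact
Clec4a3: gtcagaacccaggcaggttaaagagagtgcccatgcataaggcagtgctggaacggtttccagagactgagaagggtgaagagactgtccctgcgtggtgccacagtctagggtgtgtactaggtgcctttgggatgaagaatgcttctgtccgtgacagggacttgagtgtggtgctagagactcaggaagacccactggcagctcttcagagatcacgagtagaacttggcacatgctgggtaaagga
Clec4d held 1 match to GAGGAA, 240 bases before the start. Clec4e held 2, at 123 and 56 bases, and a C/EBP match at 66 bases. Clec12a held 2 matches to GAGGAA, at 61 and 47 bases, with AP-1 at 213 and C/EBP at 140 bases. Clec4a3 held no match to these letters. Promoters of 25 members were in the table, and GAGGAA was found in 12 of them (48.0%), against 23.3% of all 32851 promoters. TGANTCA was found in 5 (20.0%) against 6.75%, TTGCNNAA in 4 (16.0%) against 9.56%, the IRF letters in 2 (8.00%) against 2.98% and the NF-kB letters in 4 (16.0%) against 45.8%. A match is a run of letters and not a measured binding site.

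The signalling chain downstream of the activating receptors was read from a list of 24 genes, all tested. Between injured and uninjured cortex 5 were higher and 0 lower, where 8.99% and 2.87% of all genes were called. The median log2 fold change of the 24 was 0.72, against 0.00 over all genes. Among the 5 called higher were Fgr (4.42), Hcst (1.50), Syk (0.97) and Malt1 (1.29). In cultures against injured cortex 2 were higher, Lat2 (0.99) and Vav3 (0.83), and 10 were lower, with Card9 at -1.75, Inpp5d at -1.30 and Lyn at -1.41. In cultures against uninjured cortex 7 were higher and 2 lower, with Syk at 1.34, Tyrobp at 1.32 and Card9 at -1.03. Of all genes, 20.0% were called higher and 30.1% lower in cultures against injured cortex. Against uninjured cortex these shares were 27.5% and 33.1%.

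Tyrobp encodes DAP12, the adaptor of MDL-1, and had 2292, 2481 and 2387 CPM in reactive cultures, 1671, 2265 and 888 CPM in injured cortex and 939, 1027 and 906 CPM in uninjured cortex. Fcer1g encodes FcR-gamma, the adaptor of Dectin-2, MCL and Mincle, and had 1225, 1441 and 1121 CPM in reactive cultures, 2176, 2365 and 809 CPM in injured cortex and 991, 1008 and 863 CPM in uninjured cortex. The cultures had the highest Tyrobp but lay within the range of injured cortex for Fcer1g. Card9 had 2.89, 2.64 and 4.46 CPM in reactive cultures, 10.5, 10.6 and 12.4 CPM in injured cortex and 6.57, 8.37 and 5.31 CPM in uninjured cortex, so that the cultures, where Clec4n and Clec4d were highest, had the lowest Card9.

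Of 17 ligands and partners of Clec receptors, 16 were tested. Between injured and uninjured cortex 8 were higher and 0 lower. In the cultures 6 were higher and 6 lower than in injured cortex, and 7 were higher and 3 lower than in uninjured cortex. The shares of all genes called higher and lower were 8.99% and 2.87%, 20.0% and 30.1%, and 27.5% and 33.1% in that order. Pdpn, which encodes the CLEC-2 ligand podoplanin, had 58.9, 26.0 and 50.1 CPM in reactive cultures, 6.37, 3.72 and 13.2 CPM in injured cortex and 2.65, 3.82 and 5.86 CPM in uninjured cortex. It was higher in cultures than in injured cortex (log2 2.52 ± 0.46, adjusted p = 8.37e-04), where its receptor gene Clec1b was not called. Sap130, which encodes a ligand of Mincle, was lower in cultures than in injured cortex (-1.03 ± 0.33, adjusted p = 0.0202). Klrb1b, which encodes the receptor of Clr-b, had 0 CPM in every culture, 19.4, 6.49 and 3.44 CPM in injured cortex and 0.276, 0.270 and 0.122 CPM in uninjured cortex. Clec2d, the gene of its ligand, was detected in all 3 cultures.

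C-type lectin genes with other symbols were read from a list of 49, of which 34 were tested. Between injured and uninjured cortex 13 were higher and 5 lower, with Cd72 at 5.60, Klrk1 at 4.73 and Colec12 at -1.55. In the cultures 9 were higher and 19 lower than in injured cortex, with a median of -3.02. Colec12, a scavenger receptor, was at 4.24, and Bcan, which encodes brevican, was at -5.53. In cultures against uninjured cortex 13 were higher and 15 lower. The shares of all genes called higher and lower were 8.99% and 2.87%, 20.0% and 30.1%, and 27.5% and 33.1% in the order of these comparisons. The medians of the list were 1.29, -3.02 and -0.71, against 0.00, -0.19 and -0.17 over all genes.

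Markers of the cells that could carry these receptors moved between the groups as well. The 7 microglial markers summed to 1220 to 1957 CPM in reactive cultures, 5105 to 16085 CPM in injured cortex and 8619 to 14088 CPM in uninjured cortex. All 7 were called lower in cultures than in each in vivo group. The 9 macrophage markers summed to 22040 to 28231 CPM in cultures, 839 to 2851 CPM in injured cortex and 863 to 1179 CPM in uninjured cortex. Gpnmb gave 15744 to 22608 CPM and Cd68 4472 to 5602 CPM of the sums in cultures. Of the 9, 4 were called higher and 1 lower in cultures than in injured cortex, and 7 higher and 2 lower than in uninjured cortex. Arg1 was at 5.63 to 12.4 CPM in cultures and 14.4 to 60.3 CPM in injured cortex. The cultures lay above every in vivo library in the macrophage sum and, among tested members, in Clec4n, Clec4d, Clec12a, Clec4a2 and the endothelial Clec14a. They lay below every in vivo library in the microglial sum and in Clec4a3, Clec10a, Clec4a4 and the intracellular Clec16a. Clec10a, a lectin of macrophages and dendritic cells, was thus lowest where the macrophage sum was highest. These orders were not particular to a few members. Within the cultures, culture 1 had the highest macrophage sum, and the sum had the same order as Gpnmb. Clec4n and Clec4d were lowest in culture 1, and Clec12a was lowest in culture 3.

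The 7 monocyte markers summed to 197 to 324 CPM in cultures, 331 to 1847 CPM in injured cortex and 31.1 to 60.0 CPM in uninjured cortex. Fn1 alone gave 180 to 306 CPM of the sums in cultures. All 7 were called higher in injured than in uninjured cortex. In the cultures 1 was higher and 6 lower than in injured cortex, and 2 were higher and 3 lower than in uninjured cortex. Among the injured libraries, Clec4e, Clec4d, Clec12a and Clec10a had the same order as the monocyte sum, which was 1847, 794 and 331 CPM. So did Clec4n, Clec4a1, Clec4b1, Clec9a and the intracellular Clec16a, so this order was not particular to the former genes. The 8 neutrophil markers summed to 174 to 207 CPM in cultures, 362 to 448 CPM in injured cortex and 57.8 to 170 CPM in uninjured cortex. Mmp8 alone gave 157 to 174 CPM of the sums in cultures. Of these 8 markers, 4 were called higher and 0 lower in injured than in uninjured cortex, and 1 higher and 7 lower in cultures than in injured cortex. Against uninjured cortex 1 was higher and 4 lower in cultures. The 7 platelet markers summed to 2.13 to 3.29 CPM in cultures, 8.24 to 13 CPM in injured cortex and 11.8 to 25.8 CPM in uninjured cortex. Neuronal markers summed to 16.0 to 99.7 CPM over all 9 libraries. The part of these cell types in the levels of the Clec genes was not tested.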

How the data were processed

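The authors deposited raw counts per gene for 9 libraries, which the sample labels place in 3 groups of 3. Reads were aligned with HISAT2 to GRCm39, per the submitters' processing notes, which name no versions. Not given in the sources used here are the counter, its strand setting and the annotation. The members and gene lists were chosen with earlier results of these data known.

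The test was the quasi-likelihood F test of edgeR 4.0.16 (R 4.3.3), fitted to all 9 libraries with 1 mean per group and 6 residual degrees of freedom. It covered the 18093 genes that pass the default filterByExpr, with TMM scaling. Benjamini-Hochberg adjustment ran over all genes tested, with calls at an adjusted p under 0.05. The SE is the log2 fold change divided by the square root of the F statistic, and log2 confidence intervals cover 95%. Ratios of low counts have exact 95% intervals, which cover counting error only, and the floor for a group with 0 counts was 3 counts. Described in full were tested members with a group mean of at least 1 CPM or a call. Exon lengths came from GENCODE M21, whose build is not that of the counts, and promoters from RefSeq on GRCm38.p6. Listed genes named are among the 6 with the smallest adjusted p in a comparison or are called exceptions, apart from Fcer1g and, in cultures against injured cortex, Pdpn and Sap130, which were chosen after their values were seen. A gene that this rule selects is left out. Protein sequences were not used here.

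No 2 libraries of a group agreed within sampling noise (chi-square per degree of freedom 18.0 or more). The labels give replicate numbers in every group, which were not treated as pairs. The tests were checked on simulated data. Alternatives were other size factors, other filters on low counts, limma-voom in limma 3.58.1, the Wald test of DESeq2 1.42.0, a fit of the 2 groups compared alone, a replicate block, and libraries left out.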

Additional observations from a re-analysis of the deposited data

How the results depend on the processing

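Over all alternatives run, 104 of 108 counts of called members stayed within 1.5 times the reported one. The exceptions were 8 members lower in cultures than in injured cortex without injured replicate 3 (reported 5) and, with uninjured replicates 2 and 3 both left out, 5 members higher in injured than in uninjured cortex (reported 9) and 6 higher and 1 lower in cultures than in uninjured cortex (reported 10 and 3). There, the spread of the lone uninjured library is taken from the other groups. Leaving out 1 library at a time gave 7 to 10 higher and 0 lower in injured against uninjured cortex, 3 to 6 higher and 4 to 8 lower in cultures against injured cortex, and 8 to 10 higher and 2 to 3 lower in cultures against uninjured cortex. With the replicate block the counts were 9 and 0, 5 and 5, and 9 and 3 in the same order. Same-numbered libraries deviated together in 3 of 9 pairs (r of -0.0880 to 0.353), and 5 of 9 libraries correlated best with their own number. The block called Clec4a1 lower (-1.34) and Clec5a higher (1.00) and did not call Clec16a (-0.53) in cultures against injured cortex, and did not call Clec4a1 (1.12) in cultures against uninjured cortex. Called members that were called under every alternative in which they were tested numbered 4 of 9 (Clec4n, Clec4d, Clec12a and Clec2i), 7 of 9 (all but Clec16a and Clec4a2, with Clec4a4 not tested at 1 CPM in 3 libraries) and 7 of 13 (Clec4n, Clec4d, Clec4e, Clec12a, Clec2d, Clec2i and Clec4a3). In cultures against injured cortex, the calls of Clec9a and Clec4a4 among these are a description. Upper-quartile scaling moved the median of all genes to -0.12 in injured against uninjured cortex (reported 0.00), -0.27 in cultures against injured cortex (reported -0.19) and -0.37 in cultures against uninjured cortex (reported -0.17), and gave 9 higher and 0 lower, 4 and 6, and 9 and 4 members.

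Of fold changes of single members, 908 kept direction and call, 55 lost the call, 36 gained one and 22 turned direction, none of these called under either setting. In injured against uninjured cortex, leaving out 1 library at a time gave -0.18 to 0.10 for Clec16a, -0.30 to 0.52 for Clec5a, -0.039 to 1.04 for Clec14a and -0.085 to 1.005 for Clec1a. With uninjured replicates 2 and 3 both left out, these were 0.10 for Clec16a, -0.14 for Clec5a, -0.36 for Clec14a and -0.68 for Clec1a, and Clec16a gave 0.013 with no filter on low counts. In cultures against injured cortex, Clec2d gave -0.0051 to 0.58 over the libraries left out. In cultures against uninjured cortex, leaving out 1 library gave -4.18 to 0.77 for Clec9a, the lowest being a fitted value against cultures with 0 counts, and -0.36 to 0.12 for Clec1b. The same comparison gave -0.68 for Clec9a with limma-voom and, with uninjured replicates 2 and 3 both left out, 0.091 for Clec1b, -0.31 for Clec1a, -0.23 for Clec2l and 1.08 for Clec4b1. The causes were not tested. Depth limits Clec9a, Clec4a4, Clec2d and the members not tested, which had few counts in at least 1 group.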
